A study of Arabidopsis thaliana with 27 samples.

Results

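Small heat shock proteins are ATP-independent chaperones that bind unfolding proteins and hold them in a form that larger chaperones can refold. Plants carry separate members that are sent into organelles, and the genes are known for strong induction by heat through heat shock factors (HSFs) and, for some cytosolic members, for accumulation in ripening seeds. The 6 organelle-targeted genes of Arabidopsis described here were chosen by locus: HSP21 (AT4G27670) of the plastid, HSP23.6-MITO (AT4G25200), AT5G51440 and AT1G52560 of the mitochondrion, HSP22 (AT4G10250) of the endoplasmic reticulum (ER) and HSP15.7 (AT5G37670) of the peroxisome. They are 6 of 27587 loci in the count table. All are nuclear genes.

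RNA sequencing was done on entire seeds of Arabidopsis thaliana Col-0, the common laboratory wild type, at 3 embryo stages (heart, bent and mature). The plants were moved after first flowering to 24 °C by day and 22 °C by night (23 °C on average, the control), 26 °C and 24 °C (25 °C, mild stress) or 28 °C and 26 °C (27 °C, severe stress). Each of the 9 groups had 3 libraries, 27 in all. Library totals ranged from 17227596 to 19445885 estimated counts. The labels do not say that replicates came from separate plants, so p-values measure the spread between these libraries. Whole seeds mix embryo, endosperm and seed coat, so fewer cells of a type and less RNA per cell cannot be told apart.

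Levels below are normalised counts, that is counts divided by a size factor that corrects for library depth. A gene was called when the DESeq2 adjusted p was under 0.05, adjusted over 21445 loci that had at least 10 counts in at least 3 libraries. HSP21 did not reach that minimum, so 5 of the 6 genes were tested. On data simulated with the same spread for every gene, the false share of the DESeq2 calls was well above 0.05 and that of the edgeR calls below it. DESeq2 calls, above all those near 0.05, are therefore less certain. The simulation did not use the spread of these 6 genes. All 28 DESeq2 calls of the 5 genes below were also made by edgeR (adjusted p at most 0.0485).

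The genes were first placed on the genome (RefSeq annotation of assembly TAIR10.1, chromosome, start and end, outer ends of the transcript). AT1G52560 lies at chr1:19574538-19575866 on the minus strand. HSP22 is a single-exon gene at chr4:6370338-6371372 on the plus strand. HSP23.6-MITO is at chr4:12916926-12918110 on the plus strand with 2 exons, and HSP21 at chr4:13818825-13819971 on the minus strand with 2 exons. HSP15.7, another single-exon gene, is at chr5:14968758-14969591 and AT5G51440, with 2 exons, at chr5:20891163-20892416, both on the plus strand. No 31-base stretch of the transcripts of 5 genes recurs elsewhere in the genome, and HSP23.6-MITO has 7 such positions outside its gene. The longest stretch that any pair of the 6 shares is 19 bases (HSP23.6-MITO and AT5G51440).

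HSFs bind heat shock elements, which are built from inverted GAA units. Both 2-unit forms, GAANNTTC and TTCNNGAA (each its own reverse complement, so both strands are searched at once), were looked for in the 250 bases before each annotated start. The 150 bases nearest the start are shown for the AT5G51440 and HSP21 genes, which hold a match (in capitals), and for HSP22 and HSP23.6-MITO, which do not. They are written 5′ to 3′ on the gene's strand, from the TAIR10.1 genome.
AT5G51440 (chr5:20891013-20891162, plus strand): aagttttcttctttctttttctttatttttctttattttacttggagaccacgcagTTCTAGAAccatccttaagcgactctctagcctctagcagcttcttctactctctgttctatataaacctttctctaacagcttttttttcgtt
HSP21 (chr4:13819972-13820121, minus strand): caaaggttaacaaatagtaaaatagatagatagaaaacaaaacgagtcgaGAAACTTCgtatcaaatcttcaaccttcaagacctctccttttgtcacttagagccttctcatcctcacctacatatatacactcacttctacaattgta
HSP22 (chr4:6370188-6370337, plus strand): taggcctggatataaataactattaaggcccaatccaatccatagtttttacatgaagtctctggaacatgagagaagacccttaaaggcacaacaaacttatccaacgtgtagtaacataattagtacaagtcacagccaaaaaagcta
HSP23.6-MITO (chr4:12916776-12916925, plus strand): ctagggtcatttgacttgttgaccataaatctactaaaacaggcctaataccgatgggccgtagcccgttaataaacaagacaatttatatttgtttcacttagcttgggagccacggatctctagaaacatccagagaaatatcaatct

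The match TTCTAGAA of AT5G51440 lies 94 to 87 bases before the start, and GAAACTTC of HSP21 lies 100 to 93 bases before it. AT1G52560 holds the same letters, GAAACTTC, at 48 to 41 bases, and HSP15.7 holds TTCATGAA at 158 to 151 bases. So 4 of the 6 windows hold a 2-unit form, against 16.1% of 27443 windows of the same length, 9.55% for GAANNTTC and 7.68% for TTCNNGAA. None holds 3 alternating units, which 0.386% of all windows do. Of 11 cytosolic small heat shock protein genes, 3 hold a 2-unit form and 2 hold 3 units. The far end of the AT5G51440 window runs into the neighbouring gene AT5G51430. A match describes letters only.

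**Figure D1:**
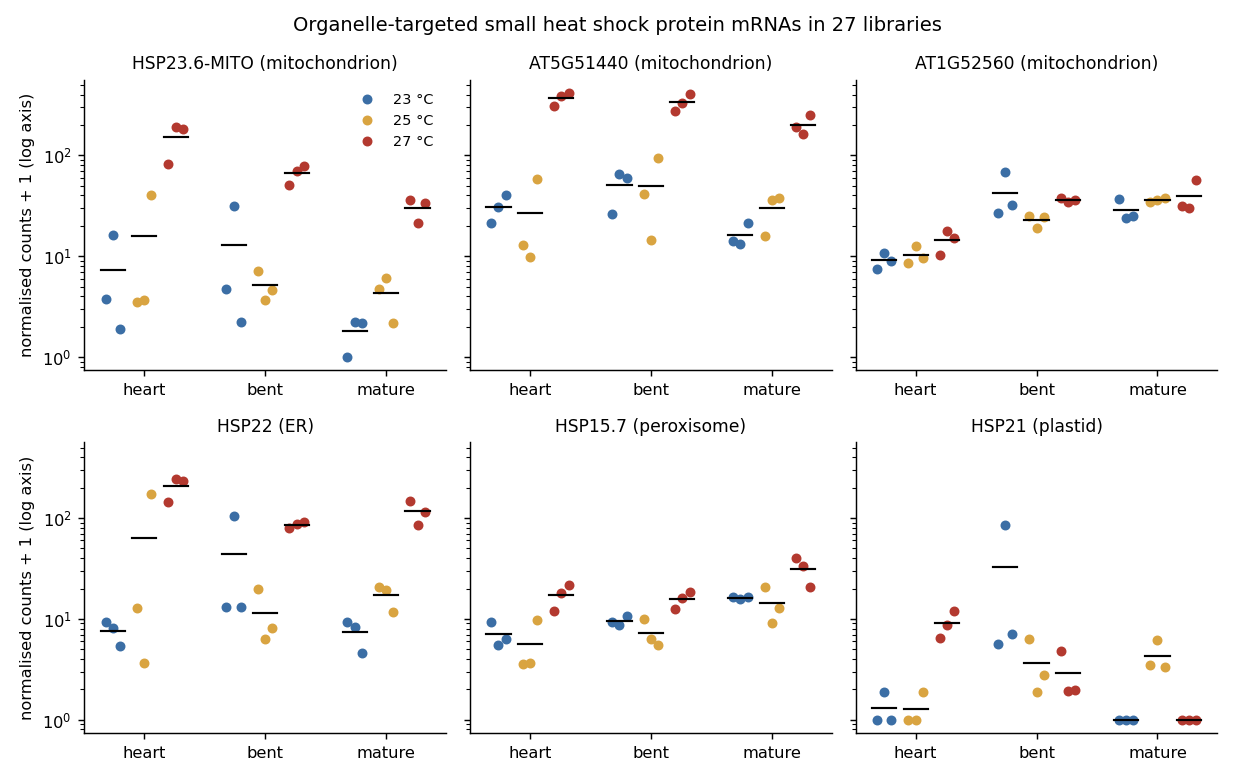
Normalised counts plus 1 (log axis) of the 6 genes by embryo stage, with 1 point per library, colour for temperature and a black line at the mean of each group (3 libraries). AT5G51440 and HSP23.6-MITO at 27 °C lie above every 23 °C and 25 °C library of the same stage, and AT1G52560 is lowest in heart seeds. HSP21 is highest in 1 bent library at 23 °C. Its heart libraries at 27 °C (5.5 to 10.9) overlap the other bent libraries at 23 °C (4.65 and 6.03).

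Severe stress was examined first, by comparing 27 °C with 23 °C within each stage. The mitochondrial genes HSP23.6-MITO and AT5G51440 rose at all 3 stages, the ER gene HSP22 rose in heart and mature seeds, and the peroxisomal HSP15.7 rose in heart seeds. The third mitochondrial gene, AT1G52560, was not called at any stage. Thus 4, 2 and 3 of the 5 tested genes were higher from heart to mature, and 0 were lower. Of all loci tested, 12.6%, 15.9% and 14.7% were higher at these stages. The median log2 fold change of the 5 genes was 3.65, 0.99 and 3.73, beside -0.01, -0.02 and 0.00 over all loci.

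AT5G51440 had the highest level of the 6 at 27 °C. In heart seeds at 27 °C its libraries held 310, 387 and 415 normalised counts, against 20.1, 29.5 and 39.0 at 23 °C, a log2 fold change of 3.65 (SE 0.55, adjusted p = 2.64e-09). In bent seeds the values were 276, 326 and 403 at 27 °C and 25.1, 64.2 and 59.1 at 23 °C (log2 fold change 2.76, SE 0.55, adjusted p = 6.53e-06). In mature seeds they were 192, 161 and 250 at 27 °C and 13.2, 12.2 and 20.2 at 23 °C (log2 fold change 3.73, SE 0.59, adjusted p = 8.71e-09). At every stage the lowest 27 °C library exceeded the highest 23 °C library, and as means the fold was 12.5, 6.77 and 13.3. Its 3 effects did not differ between stages by the interaction test (adjusted p = 0.494 for bent against heart, 0.596 for mature against bent and 0.968 for mature against heart), with wide intervals on the differences (-2.41 to 0.64, -0.61 to 2.54 and -1.50 to 1.66).

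HSP23.6-MITO is a mitochondrial chaperone and started from a far lower level. In heart seeds it held 2.74, 15.2 and 0.89 normalised counts at 23 °C and 81.6, 192 and 180 at 27 °C (log2 fold change 4.59, SE 0.95, adjusted p = 2.85e-05). In mature seeds the 23 °C libraries were near 0 with 0, 1 and 1 counts, while the 27 °C libraries held 28, 17 and 28. The ratio of the 73 counts at 27 °C to the 2 at 23 °C, scaled by size factors, was 36.6. Its exact 95% interval of 9.78 to 308 covers counting error only. DESeq2 gave a log2 fold change of 5.20 (SE 1.37, adjusted p = 0.00117). In bent seeds replicate 2 at 23 °C held 30.7 against 3.72 and 1.21, yet all 27 °C libraries (49.9, 68.4 and 77.1) lay above it (log2 fold change 2.44, SE 0.94, adjusted p = 0.0281). This call was lost without replicate 1 or 3 at 23 °C or replicate 2 or 3 at 27 °C. Without replicate 2 at 23 °C the log2 fold change was 4.68.

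The 27 °C levels of HSP23.6-MITO fell in order from heart to mature, with means of 151 ± 60.6, 65.1 ± 13.9 and 29.3 ± 7.80 (SD, n = 3 each). Heart libraries lay above bent ones without overlap, and bent above mature, although neither step was called (adjusted p = 0.288 and 0.305). The AT5G51440 means at 27 °C were 370 ± 54.3, 335 ± 64.0 and 201 ± 45.0, where heart and bent overlapped and mature lay below. Steps between stages were not called for this gene at 27 °C either (adjusted p = 0.859 and 0.258).

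HSP22 is the small heat shock protein of the ER lumen. Heart seeds held 8.23, 7.16 and 4.43 normalised counts at 23 °C and 144, 242 and 230 at 27 °C, a 31.1-fold difference of the means (log2 fold change 4.96, SE 0.97, adjusted p = 6.77e-06). Mature seeds held 8.37, 7.29 and 3.56 at 23 °C and 147, 84.3 and 115 at 27 °C (log2 fold change 4.17, SE 0.99, adjusted p = 0.000249). In bent seeds the groups overlapped, because replicate 2 at 23 °C held 104 while the other 2 libraries held 12.1 each, and the 27 °C libraries held 78.6, 86.1 and 90.6. The difference was not called there (log2 fold change 0.99, SE 0.93, adjusted p = 0.419). Without that library the bent difference was 2.82 and was called (adjusted p = 0.00655).

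The effect on HSP22 was smaller in bent than in heart seeds by the interaction test (difference of log2 fold changes -3.97, SE 1.34, adjusted p = 0.0258). It was the only one of 15 interaction results of the 5 genes that passed, and 14.7% of all loci passed for bent against heart, 5.5% for mature against bent and 14.9% for mature against heart. Without replicate 2 of bent seeds at 23 °C the difference was -2.14 and no longer passed (adjusted p = 0.22). It also missed the threshold without heart replicate 2 or 3 at 23 °C or bent replicate 1 at 27 °C (-4.03 to -3.75). With replicate 3 of heart seeds at 25 °C left out together with replicate 2 of bent seeds at 23 °C, it was -2.15 and passed (adjusted p = 0.00897).

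HSP15.7, which carries a peroxisomal targeting signal, moved less. In heart seeds it rose from 8.23, 4.48 and 5.31 normalised counts at 23 °C to 11.0, 16.9 and 20.9 at 27 °C (log2 fold change 1.45, SE 0.48, adjusted p = 0.0147). In mature seeds it held 15.5, 14.6 and 15.4 at 23 °C and 38.9, 32.5 and 19.7 at 27 °C, just outside the threshold with DESeq2 (log2 fold change 0.99, SE 0.42, adjusted p = 0.0543) and inside it with edgeR (adjusted p = 0.0473). In bent seeds the values were 8.37, 7.66 and 9.65 at 23 °C and 11.5, 15 and 17.4 at 27 °C (log2 fold change 0.78, SE 0.47, adjusted p = 0.182). At all 3 stages every 27 °C library lay above every 23 °C library of the stage. Counts were low, with at most 31 in a library. The heart call was lost without replicate 2 or 3 of either temperature (1.23 to 1.42), and the mature difference was called without mature replicate 3 at 27 °C (1.23), replicate 1 or 2 at 25 °C or heart replicate 3 at 25 °C.

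AT1G52560 was lowest in heart seeds and was not called for temperature. Its log2 fold change at 27 °C against 23 °C was 0.74 in heart seeds (95% interval -0.14 to 1.62), -0.25 in bent seeds (-0.92 to 0.42) and 0.47 in mature seeds (-0.24 to 1.19), and the libraries of both temperatures overlapped at each stage. In bent seeds the 27 °C libraries (36.4, 33.7 and 34.7 normalised counts) lay above those at 25 °C (23.9, 17.9 and 23.3), a difference that was not called (log2 fold change 0.69, adjusted p = 0.158). Without replicate 2 of bent seeds at 23 °C, where it held 67.0 against 26.0 and 31.4, the bent value was 0.29. The intervals do not reach the mean effects on AT5G51440 at the same stages (3.65, 2.76 and 3.73), a comparison between genes that was not tested. The gene has 2 transcripts in the table, with 577 and 93.7 of its counts over the 27 libraries, which were summed.

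HSP21 protects plastid proteins, among them those of the photosynthetic membranes, and was hardly detected. It had 153 counts in all 27 libraries together, with 0 in 10 libraries, 1 to 3 in 8 and more than 3 in 9. Replicate 2 of bent seeds at 23 °C held 89 of them, which is 58.2%, where replicates 1 and 3 held 5 each. In heart seeds at 27 °C the libraries held 6, 9 and 13 counts, against 0, 1 and 0 at 23 °C and 0, 0 and 1 at 25 °C. The ratio of 28 counts at 27 °C to 1 at 23 °C was 27.0, with an exact 95% interval of 4.46 to 1100 for counting error only. Mature seeds held 0 counts in all 3 libraries at 23 °C and again at 27 °C, and 2, 5 and 2 at 25 °C. By counting error, a single library at 0, taken alone, allows up to 3 counts. When the count minimum was dropped, HSP21 was called higher at 27 °C in heart seeds (adjusted p = 0.0217) and lower in bent seeds (adjusted p = 0.00456). The bent groups overlap (5, 89 and 5 counts against 4, 1 and 1), and the mean of the other bent 23 °C libraries was 5.34 normalised counts against 1.91 at 27 °C.

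**Figure D2:**
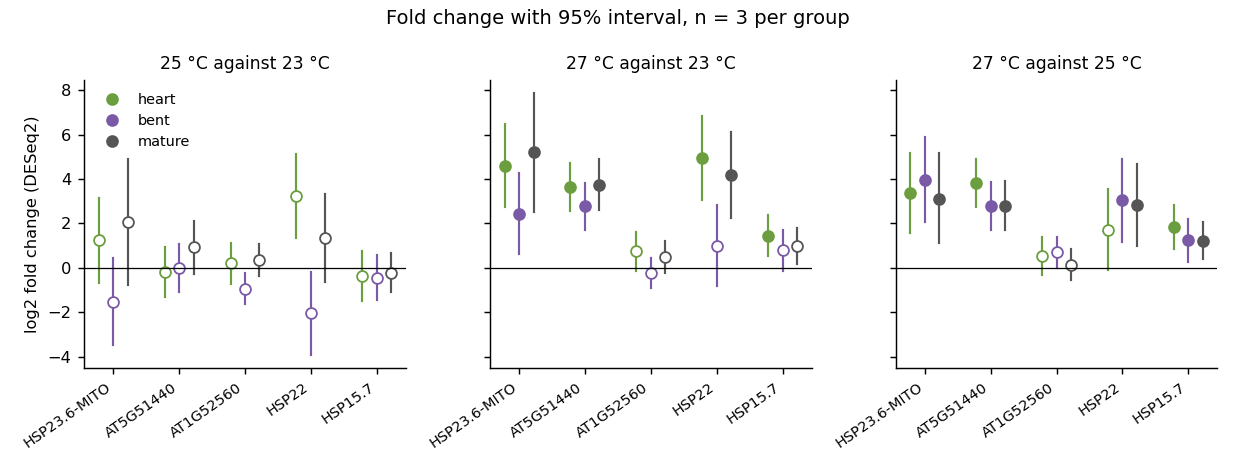
DESeq2 log2 fold changes (y axis) of the 5 tested genes for 3 temperature comparisons, with 95% intervals as lines and colour for the stage (3 libraries per group). Filled points passed an adjusted p under 0.05: 0 at 25 °C against 23 °C, and 9 and 11 of 15 in the panels for 27 °C.

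Mild stress was examined by comparing 25 °C with 23 °C. None of the 5 genes was called at any stage, where the share of all loci called higher was 0.275% (heart), 0.121% (bent) and 0.807% (mature) and the share called lower 0.546%, 2.94% and 0.797%. In bent seeds DESeq2 withheld the adjusted p of 15803 of the 21445 loci, all 5 genes included, for their low mean count, so the bent shares and the 0 of 5 rest on few loci with a p. There the unadjusted p was under 0.05 for AT1G52560 and HSP22, both lower at 25 °C (log2 fold change -0.94 and -2.05). Both values shrank, to -0.39 and -0.22, once the bent 23 °C replicate 2 was dropped from the fit. That control library held the most of both genes in its group (67.0 and 104 normalised counts). The edgeR quasi-likelihood test also called 0 of the 5 at each stage. The largest value was that of HSP22 in heart seeds, a log2 fold change of 3.24 (SE 0.97, adjusted p = 0.0821). It came with replicate 3 at 25 °C at 172 normalised counts, while replicates 1 and 2 held 11.9 and 2.67, and without that library it was 0.15. It was called without replicate 1 (3.73) or 2 (3.80) of the heart group at 25 °C, and with the bent 23 °C replicate 2 or 3 omitted, which left it at 3.24 but changed the shared spread. In mature seeds all HSP22 libraries at 25 °C (19.8, 18.4 and 10.7 normalised counts) lay above those at 23 °C (8.37, 7.29 and 3.56). That difference was not called (log2 fold change 1.35, DESeq2 adjusted p = 0.64). The intervals at 25 °C remained wide. For AT5G51440 the log2 fold change was -0.18 (95% interval -1.31 to 0.94) in heart seeds, -0.02 (-1.11 to 1.08) in bent seeds and 0.93 (-0.26 to 2.11) in mature seeds.

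Severe was then compared with mild stress. HSP23.6-MITO, AT5G51440 and HSP15.7 were higher at 27 °C than at 25 °C at all 3 stages, and HSP22 was higher in bent and mature seeds. That gives 3, 4 and 4 of 5 genes from heart to mature, where 10.8%, 11% and 14.2% of all loci were higher. AT5G51440 had log2 fold changes of 3.83, 2.78 and 2.80 from heart to mature (adjusted p at most 1.09e-05). HSP23.6-MITO had 3.36, 3.97 and 3.12 (adjusted p = 0.00289, 0.000693 and 0.0116). HSP15.7 had 1.82, 1.23 and 1.21 (adjusted p = 0.00337, 0.0497 and 0.0171), and its bent call was lost in 18 of the 27 fits that each left out 1 library. Its mature call was lost without replicate 2 or 3 at 25 °C or replicate 1 or 2 at 27 °C (0.94 to 1.16), and that of HSP23.6-MITO without replicate 3 at 25 °C (2.73).

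HSP22 had log2 fold changes of 3.03 in bent seeds (adjusted p = 0.00988) and 2.82 in mature seeds (adjusted p = 0.0126) at 27 °C against 25 °C. These calls were lost without bent replicate 2 at 25 °C (2.72) and mature replicate 3 at 25 °C (2.59). In heart seeds the 25 °C replicate 3 (172) lay among the 27 °C libraries (144, 242 and 230), and the difference of 1.72 was not called (adjusted p = 0.19). Without that library it was 4.81. The 2 comparisons with 27 °C share the 27 °C libraries. The step from 25 °C to 27 °C and the step from 23 °C to 25 °C were not compared by a test.

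The levels were next followed through development. At 23 °C, AT1G52560 rose from heart to bent (8.08 ± 1.72 to 41.5 ± 22.3, SD, n = 3), with 6.40, 9.85 and 7.97 normalised counts in heart and 26.0, 67.0 and 31.4 in bent libraries (log2 fold change 2.37, SE 0.42, adjusted p = 7.61e-08). The same step was called at 27 °C, from 9.17, 16.9 and 14.2 to 36.4, 33.7 and 34.7 (log2 fold change 1.37, SE 0.38, adjusted p = 0.00118). From bent to mature it was not called at either temperature (log2 fold change -0.60 at 23 °C and 0.13 at 27 °C). In the order of its 9 group means, the 3 heart groups were the lowest, and the only gap without overlap lay between bent seeds at 25 °C and heart seeds at 27 °C. Leaving out any 1 library kept both calls.

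Other steps were called at 23 °C. HSP22 was called higher in bent than in heart seeds (log2 fold change 2.70, adjusted p = 0.0112), and HSP22, HSP23.6-MITO and AT5G51440 were called lower in mature than in bent seeds (-2.74, -3.90 and -1.70, adjusted p = 0.0135, 0.0115 and 0.0104). With bent replicate 2 at 23 °C left out, 1 gene (AT1G52560) was called from heart to bent and 0 from bent to mature, with values of 0.87 for the first step of HSP22 and -0.91, -1.67 and -1.46 for the second. The last of these, AT5G51440, missed the threshold narrowly (adjusted p = 0.0543), was called at -1.46 with heart replicate 3 at 25 °C left out as well (adjusted p = 0.0198), and held 59.1 and 25.1 normalised counts in the other bent libraries. HSP22 also lost its second call without replicate 3 of mature seeds at 23 °C (-2.45). Of all loci, 29.3% rose and 29.6% fell from heart to bent, and 23.4% rose and 27% fell from bent to mature. At 27 °C, 20.7% rose and 22.2% fell in the first step and 24.6% rose and 23.9% fell in the second. There AT1G52560 alone was called in the first, and HSP15.7 alone in the second, from 11.5, 15 and 17.4 to 38.9, 32.5 and 19.7 (log2 fold change 1.05, SE 0.40, adjusted p = 0.0218). With bent replicate 2 at 23 °C and heart replicate 3 at 25 °C left out, HSP22 and HSP23.6-MITO were also called in the first step at 27 °C, both lower (-1.27 and -1.22). The HSP15.7 call was lost without replicate 1 or 2 of either group (0.83 to 1.07).

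Levels of different genes were compared per kilobase of transcript. In heart seeds at 27 °C, AT5G51440 had 332 normalised counts per kilobase, HSP22 198, HSP23.6-MITO 144, HSP15.7 19.5, AT1G52560 12.9 and HSP21 8.14. AT5G51440 and HSP22 led at each stage at 27 °C. In mature seeds at 23 °C the order began instead with AT1G52560 (26.4) and HSP15.7 (18.2), followed by AT5G51440 (13.6) and HSP22 (6.19). The summed normalised counts of the 6 genes were 56.8 ± 10.7, 186 ± 151 and 65.1 ± 7.36 at 23 °C from heart to mature and 765 ± 176, 537 ± 84.0 and 414 ± 76.4 at 27 °C (SD, n = 3). AT5G51440 held 48.4% to 62.4% of the sum at 27 °C.

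**Figure D3:**
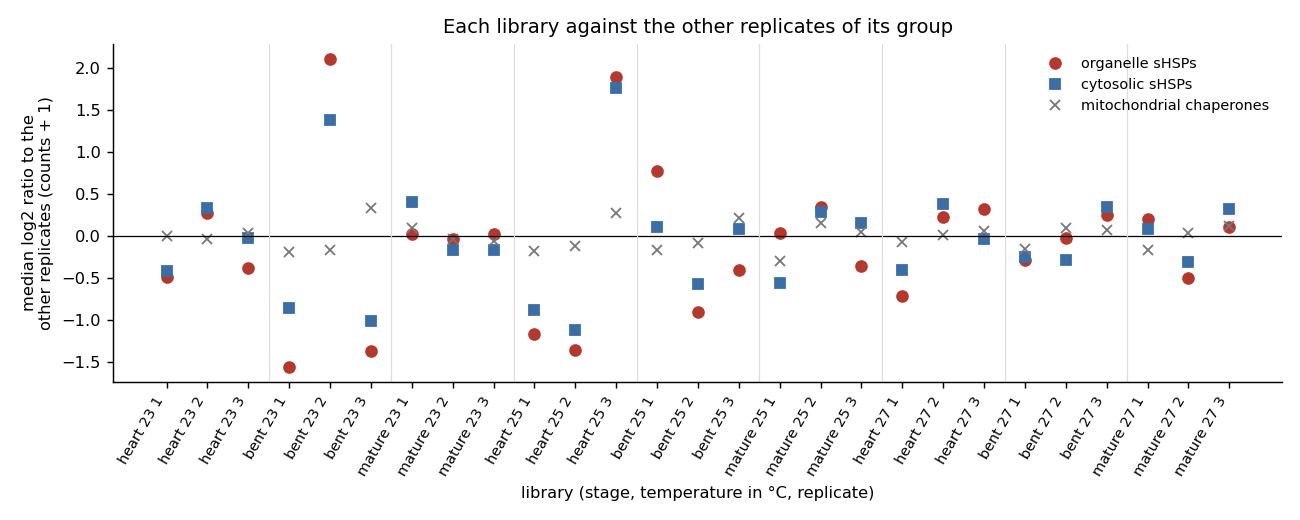
For each of the 27 libraries, the median log2 ratio of its normalised counts plus 1 to the mean of the other 2 replicates, over the 6 organelle genes, 11 cytosolic small heat shock protein genes and 10 mitochondrial chaperone genes. Replicate 2 of bent seeds at 23 °C (2.10 and 1.38 for the first 2 lists) and replicate 3 of heart seeds at 25 °C (1.89 and 1.76) stand above all others.

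The same 2 libraries stood apart for the whole class of genes. In replicate 2 of bent seeds at 23 °C, 5 of the 6 organelle genes and 9 of 11 cytosolic small heat shock protein genes lay above both other replicates, for example AT1G53540 with 318 against 10.2 and 33.8 normalised counts. HSFA2, the heat-induced factor that sustains the response, did not (40.2 against 28.8 and 45.8), and neither did any of 10 mitochondrial chaperone genes. In replicate 3 of heart seeds at 25 °C, 5 of 6 and 9 of 11 genes lay above, HSFA2 held 16.5 against 6.80 and 5.34, and 9 of the 10 mitochondrial chaperone genes were above with a median log2 ratio of 0.28. HSP22 there was 23.7 times and AT5G51440 5.5 times the mean of the other libraries, and AT1G52560 0.90 times. Both libraries entered all tests, and with both left out 4, 3 and 3 of the 5 genes were called higher at 27 °C against 23 °C from heart to mature, where 12.5%, 14.2% and 14.8% of all loci were.

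Markers of seed tissues and pollen also moved with temperature and with single libraries. All 4 of 4 pollen markers fell at 27 °C at each stage, and their summed normalised counts ranged from 1170 to 2870 in heart, 694 to 1470 in bent and 332 to 1300 in mature seeds at 23 °C, against 288 to 430, 106 to 218 and 60.2 to 120 at 27 °C. At 25 °C the sums ranged from 361 to 1710, 207 to 243 and 54.5 to 393 from heart to mature. The median log2 fold changes of the 4 markers at 25 °C against 23 °C were -0.77, -2.28 and -2.17. Of the 4, 0, 0 and 3 were called lower there. None of the 4 was at 0 in any group. The sum was 361 in replicate 3 of heart seeds at 25 °C (1710 and 1130 in the others) and 694 in replicate 2 of bent seeds at 23 °C (1070 and 1470). Of 10 tested markers of the maturing embryo, such as storage protein genes, 0 were higher and 2 lower in heart seeds at 27 °C, and 0 changed in bent and mature seeds, while at 25 °C 8 of the 10 were lower in heart seeds (median log2 fold change -9.31). Their sum in heart seeds at 23 °C was 99300 in replicate 1 and 1400 and 822 in replicates 2 and 3. It was 9330 to 15500 at 27 °C and 81 to 196 at 25 °C. The 27 °C sums thus lay below that of replicate 1 but above those of replicates 2 and 3. The heart calls at both temperatures used all 3 control libraries. In replicate 1, 10 of the 11 listed markers lay above both other replicates. In that replicate 1 the levels of AT5G51440 and AT1G52560 were the lowest and those of HSP22 and HSP15.7 the highest of the group. Photosynthesis markers of leaf and silique were lower at 27 °C for 3 of 3 genes in bent and in mature seeds (sums of 53800 to 108000 and 66000 to 69400 at 23 °C, 36600 to 42400 and 41600 to 45100 at 27 °C) and for 0 in heart seeds. Of 3 seed coat markers, 2 were higher and 1 lower in heart seeds, 2 lower in bent and 1 lower in mature seeds. Of 4 endosperm markers, 1 was higher and 1 lower in heart seeds, where their sum was 885 to 4050 at 23 °C and 9520 to 11500 at 27 °C, and 0 and 1 were lower in the later stages. The part of these markers in the results was not tested.

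**Figure D4:**
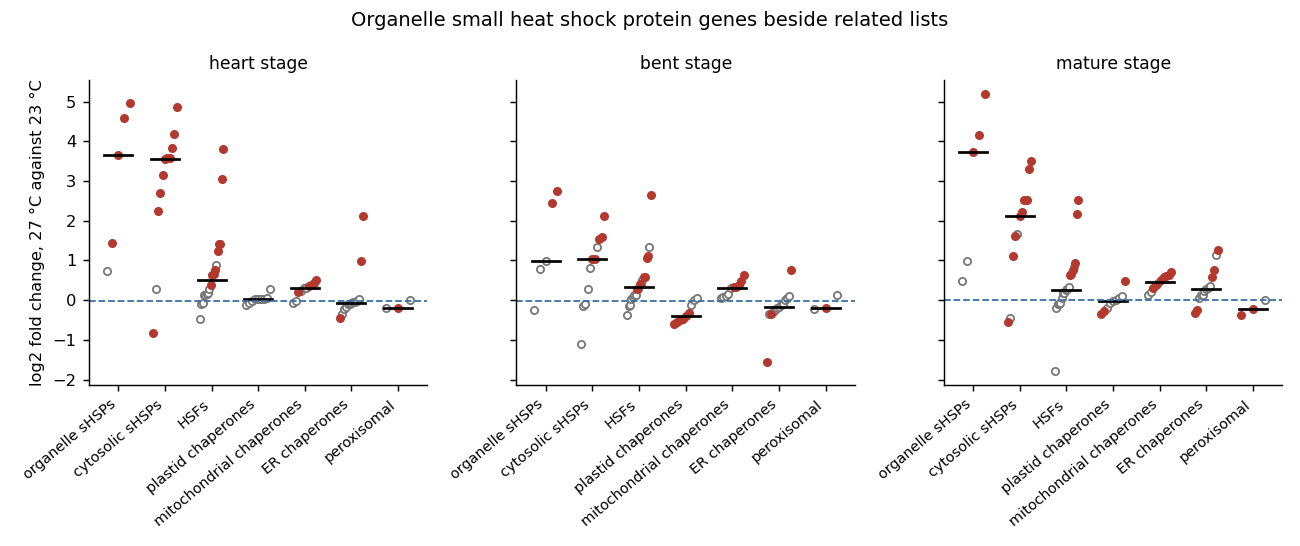
DESeq2 log2 fold changes at 27 °C against 23 °C (y axis) for each tested gene of 7 groups at 3 stages, with 1 point per gene, red where the adjusted p is under 0.05, a black line at the list's median and a dashed line at the median of all 21445 loci. The organelle and cytosolic small heat shock proteins have the highest medians, 3.65 and 3.55 in heart seeds, while the medians of the other chaperone lists lie within 0.46 of 0 at every stage.

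The genes were then set beside other parts of the heat response. Of 11 cytosolic small heat shock protein genes, 9, 5 and 8 rose from heart to mature at 27 °C against 23 °C, while 1, 0 and 1 fell (medians 3.55, 1.04 and 2.13 on the log2 scale). With both libraries named above left out, 9 rose at each stage. Called higher at all 3 stages were AT1G59860, AT1G07400, AT1G54050, HSP17.6II (AT5G12020) and HSP17.6A (AT5G12030). HSP17.6A had log2 fold changes of 4.85, 1.55 and 3.30 from heart to mature, and AT1G59860 had 3.16, 1.59 and 2.52. The gene that fell was AT4G21870 in heart seeds (-0.83) and AT5G54660 in mature seeds (-0.56).

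Chaperones of the mitochondrion, ER and plastid that are not small heat shock proteins had list medians nearer to 0, and the lists were not compared by a test. Of 10 mitochondrial chaperone genes, 5, 5 and 7 rose from heart to mature and 0 fell, with medians of 0.31, 0.31 and 0.46. Those called at every stage were CLPB4 (AT2G25140), a disaggregase, with log2 fold changes of 0.50, 0.64 and 0.72, MTHSC70-2 (AT5G09590), an HSP70, with 0.43, 0.32 and 0.58, HSP60-3A (AT3G13860), a chaperonin subunit, with 0.20, 0.33 and 0.31, and the HSP70 co-chaperone MGE1 (AT5G55200) with 0.38, 0.49 and 0.62. For ER chaperones, 2, 1 and 3 of 13 genes rose and 1, 2 and 2 fell (medians -0.07, -0.17 and 0.27). The ER gene called at all stages was ATERDJ3A (AT3G08970), a DnaJ-type co-chaperone, with 0.99, 0.75 and 1.26. The ER HSP70 BIP3 (AT1G09080) had 2.13 in heart (adjusted p = 0.00122), -1.56 in bent (adjusted p = 0.00833) and 1.14 in mature seeds (adjusted p = 0.0679).

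In the plastid list, 0, 0 and 1 of 9 genes rose and 0, 6 and 2 fell (medians 0.02, -0.41 and -0.03). In bent seeds 4511 of all 21445 loci tested were called lower at 27 °C. For heart and mature seeds the share of all loci called lower was not set beside the list counts. Of 3 further peroxisomal genes 0 rose, and 1, 1 and 2 fell. ACD32.1 (AT1G06460) had log2 fold changes of -0.20, -0.23 and -0.38 from heart to mature and was called lower in mature seeds (adjusted p = 0.0141). Its mean normalised counts were 1395, 1207 and 1172 at 23 °C and 1218, 1028 and 899 at 27 °C from heart to mature. LON2 (AT5G47040), a peroxisomal protease with chaperone activity, was lower at all 3 stages, by -0.19, -0.21 and -0.22 on the log2 scale. In replicate 3 of bent seeds at 23 °C, a control library, 9 of 9 plastid, 9 of 10 mitochondrial and 10 of 13 ER chaperone genes lay above both other replicates (median log2 ratio 0.55, 0.33 and 0.62). Without that library the bent counts at 27 °C were 1 higher and 2 lower of 9 plastid genes (median -0.12), 8 higher of 10 mitochondrial genes (0.46), 3 higher of 11 cytosolic small heat shock protein genes (0.82) and 3 higher of 18 HSF genes (0.25). These counts were not set beside the share of all loci called in that fit, so only their shift is described.

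Heat shock factors act upstream of these genes. Of 21 HSF genes 18 were tested, and 9, 7 and 6 rose from heart to mature at 27 °C while 0 fell (medians 0.50, 0.34 and 0.26). HSFA2 (AT2G26150) rose at all 3 stages, with 252, 286 and 268 normalised counts in heart seeds at 27 °C against 22.0, 10.7 and 24.8 at 23 °C, and log2 fold changes of 3.81, 2.64 and 2.16 from heart to mature (adjusted p at most 2.36e-06). HSFB2A (AT5G62020) rose by 1.23, 1.11 and 0.64 and HSFB1 (AT4G36990, listed as HSF4), a repressor, by 0.64, 0.59 and 0.93. The constitutive activators HSFA1A (AT4G17750), HSFA1B (AT5G16820) and HSFA1D (AT1G32330) were not called at any stage, with log2 fold changes between -0.10 and 0.25. HSFA3 (AT5G03720), a factor of the drought and heat response, had 0.27 in heart seeds and rose by 0.57 in bent and 0.76 in mature seeds.

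HSFA9 (AT5G54070), known as a seed-specific factor of late maturation, was hardly detected. It had 10 counts over the 27 libraries, at most 2 in one, and 0 counts in 18 libraries, and was not tested. HSFA7B (AT3G63350) with 9 counts and HSFA6A (AT5G43840) with 26 counts did not reach the minimum either.

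Finally, the pattern of the genes over the 27 libraries was compared with that of other genes. On log2(normalised count + 1), HSP23.6-MITO, AT5G51440 and HSP22 followed each other (Pearson's r of 0.87, 0.91 and 0.84 for the 3 pairs, and 0.89, 0.91 and 0.90 over 25 libraries without those that stood apart). HSP15.7 had r of 0.41 to 0.59 with these 3, AT1G52560 0.06 to 0.24, and HSP21 0.30 to 0.39. These are descriptions over libraries that share stage and temperature, and carry no test.

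The loci most like the mean of the 5 standardised profiles, among 19138 loci whose mean reached 20 normalised counts, included 5 small heat shock protein genes. They were AT1G07400 (r = 0.96), HSP17.4 (AT3G46230, r = 0.95), HSP17.6A (AT5G12030, r = 0.94), AT2G29500 (r = 0.92) and AT1G54050 (r = 0.90). Next to them stood the cytosolic chaperones HSP90.1 (AT5G52640, r = 0.94) and HSP70 (AT3G12580, r = 0.90), the factor HSFA2 (AT2G26150, r = 0.89), AT5G12110 (r = 0.88) and AT2G27080 (r = 0.88). AT1G52560 on its own was most like AT1G67920, PLL5 (AT1G07630) and AT1G29760 (r = 0.90 each), none of which was among the 3 most like any other of the genes.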

How the data were processed

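The authors sequenced messenger RNA of whole seeds and quantified it with Salmon, which shares ambiguous reads between transcripts by an estimate. The values the authors deposited are expected counts (estimated counts) per Araport11 transcript, not normalised and not pooled, and 61.5% of the values are not whole. The alignment settings and whether counting used the strand are not given in the sources used here. Estimates were summed per locus, rounded and tested with DESeq2 1.42.0 (R 4.3.3), the study's test, in 1 fit of 9 groups without covariates. Loci needed at least 10 counts in at least 3 libraries. Adjusted p-values are Benjamini-Hochberg over all loci tested, two-sided. DESeq2 withholds some for genes of low mean count.

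The 6 genes and all lists were chosen with earlier results of these data known. The text names all 6 genes, the 10 loci with the most similar profile (pseudocount 1), list genes called in 1 direction at all 3 stages at 27 °C, and 7 HSFs. Other genes named (AT1G53540, AT4G21870, AT5G54660, BIP3, ACD32.1, HSFA7B, HSFA6A and the nearest profiles of AT1G52560) were chosen after their values were seen. Alternatives were edgeR 4.0.16, other size factors and filters, the replicate number as a block, stages fitted alone and libraries left out. Gene positions and sequences came from RefSeq, TAIR10.1, in which 27392 loci were found. Counting error alone sets the intervals given for counts, since reads carry no molecular identifiers.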

Additional observations from a re-analysis of the deposited data

Results flagged for a closer look

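With all libraries in the fit, the log2 fold change of HSP22 at 27 °C against 23 °C was lower in bent than in heart seeds by the interaction test (-3.97, SE 1.34, adjusted p = 0.0258 with DESeq2 and 0.0444 with edgeR). Of all loci, 14.7% passed this contrast with DESeq2. All 3 heart libraries at 27 °C lay above all 3 at 23 °C, while in bent seeds replicate 2 at 23 °C lay above the 27 °C libraries. The difference kept its sign when any 1 library was left out (-4.42 to -2.14) and passed the threshold in 22 of the 27 fits, with 1 more p withheld. Without replicate 2 of bent seeds at 23 °C it was -2.14 and did not pass (DESeq2 adjusted p = 0.22).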

How the results depend on the processing

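The counts of genes called at 27 °C against 23 °C (4, 2 and 3) were the same or within 1.5 times with edgeR, other size factors and filters, with exceptions. In heart seeds 2 were called when each stage was fitted alone, where the p of HSP22 was withheld and HSP15.7 lost its call (1.46, adjusted p = 0.0762). In bent seeds 1 was called without heart replicate 1 and bent replicate 3 at 23 °C. For 25 °C against 23 °C in heart seeds, 1 gene (HSP22) was called without the count minimum and again at 50 counts. At 50 counts, where fewer genes are tested, 1 gene remained from heart to bent at 23 °C, and 0 in either step at 27 °C. With library totals as size factors 0 genes were called from bent to mature at 27 °C. Under that scaling the log2 fold change of the median locus in bent seeds at 27 °C went from -0.02 to 0.15 and lower calls from 4511 to 1768. Without the libraries that stood apart, an alternative chosen after seeing the data as was DESeq2 without its Cook's filter, 1, 1 and 3 genes were called for heart to bent and bent to mature at 23 °C and heart to bent at 27 °C (there AT1G52560 higher, and HSP22 with -1.27 and HSP23.6-MITO with -1.22 lower, adjusted p = 0.000352 and 0.0356), and AT1G52560 in bent seeds at 27 °C turned from -0.25 to 0.29 (-0.51 to 0.29 when 1 library was left out).

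DESeq2 also withheld all p-values of HSP22 without replicate 2 of mature seeds at 27 °C. Leaving out 1 library gave 1 to 3 genes at 27 °C against 23 °C in bent seeds, 0 to 1 at 25 °C in heart and in bent seeds, 2 to 4 at 27 °C against 25 °C in bent seeds and 1 to 4 in mature seeds, 1 to 2 from heart to bent and 0 to 3 from bent to mature at 23 °C, 0 to 1 from bent to mature at 27 °C, and 0 to 1 for the interactions of bent against heart and mature against bent. With edgeR the loci called at 25 °C were 16 higher and 22 lower in heart (DESeq2 59 and 117), 0 and 0 in bent (26 and 631, with 3630 at an unadjusted p under 0.05 in edgeR) and 38 and 43 in mature seeds (173 and 171), and with DESeq2's filtering off 87 and 326 in bent seeds.

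Same-numbered libraries did not vary together (17 of 108 pairs had r over 0.1, median 0.01), so the numbers were not taken as pairs. With the replicate block the counts were the same except that HSP15.7 in bent seeds at 27 °C against 25 °C lost its call (log2 fold change 1.24, adjusted p = 0.0583).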
